A study of Mus musculus with 9 samples.

Results

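The C/EBP genes encode transcription factors of myeloid differentiation, and 6 genes that carry the name were read from the expression table of mouse MLL-AF9 leukemia cells: Cebpa, Cebpb, Cebpd, Cebpe, Cebpg and Cebpz. They were taken by gene name, and each has 1 row among the 55536 genes of the table. The 9 libraries fall into 3 groups of 3. WT leukemia was sorted into WT c-kit- and WT c-kit+, and a further group is labelled IRF7-/- c-kit+. In all 3 groups, c-kit+ donor cells on the C57BL/6J background were infected with a retrovirus (MSCV) that carries MLL-AF9 and GFP, so each group holds the fusion and the label. The genotypes are given as control-GFP overexpression for the WT groups and IRF7-/--GFP overexpression for the other. The IRF7-/- donors have exons 2 and 3 of Irf7 replaced by a PGK-beta-geo cassette in every cell. GFP+ leukemia cells were passed into C57BL/6J recipients of 6 to 8 weeks that had not been irradiated, and on day 18 cells of the marrow were sorted for c-kit, the receptor that Kit encodes. The retroviral fusion is driven by the viral promoter, and the sources do not say whether the 3 libraries of a group come from different mice. The spread between them may be technical, and p-values measure only that spread.

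C/EBP proteins bind DNA as dimers through a basic region and a leucine zipper (bZIP). In the myeloid lineage C/EBPα is known for opening the granulocytic program at the step from progenitor to granulocyte-monocyte precursor, C/EBPε for the later steps in which neutrophils make secondary granules, and C/EBPβ for emergency granulopoiesis and for monocytes and macrophages. C/EBPδ is an acute phase factor, and C/EBPγ lacks an activation domain and pairs with ATF4 in the response to amino acid shortage. Cebpz shares the name through a CCAAT-binding protein but not the bZIP fold, and its product is known from ribosome assembly and from recruiting METTL3 to promoters. The bZIP protein once called C/EBPζ is CHOP, the product of Ddit3.

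The labels were read against Irf7 and Kit before any direction was drawn. For Irf7 the WT c-kit+ libraries read 5.31, 3.91 and 3.36 TPM, and those labelled IRF7-/- c-kit+ read 12.8, 5.97 and 7.95 TPM. TPM is the level per transcript length and per library total. The labelled libraries were all above WT c-kit+, which goes against the label. They were all below WT c-kit-, whose libraries read 23.5, 22.3 and 32.3 TPM. The value is 1 per gene, and exons outside the replaced ones can add to it, so it does not test the deletion itself. The libraries are called by that label from here on, and every direction drawn from them rests on it. Kit was at 0.52 to 3.03 TPM in WT c-kit- and at 50.7 to 85.7 TPM in the c-kit+ groups. Pearson's r between libraries over 13962 genes was 0.973 to 0.984 within groups and at most 0.932 between groups. In WT c-kit+ between 13.1% and 17.3% of all TPM came from the top 10 genes, and elsewhere 9.39% to 10.3%. Replicate 3 of WT c-kit- stood apart in its group, with 8772 summed TPM over 10 secondary granule genes against 1941 and 2312, and it had the highest Kit, Irf7 and Cebpe of the 3. Of 5 lymphoid markers, Nkg7 reached 192 TPM in the c-kit+ groups and the other 4 summed to between 0.48 and 1.49 TPM in every library. The 5 erythroid markers summed to at most 7.83 TPM and the 3 megakaryocyte markers to at most 4.44. Col1a1, Cdh5 and Cxcl12 of the list of stroma and endothelium summed to between 0.77 and 1.97 TPM. The other genes of that list were high, with Pecam1 at 37.9 to 106 TPM and Lepr at 15.9 to 58.4 TPM over all libraries. What cells these came from was not tested. The 5 eosinophil, basophil and mast cell markers summed to between 20.4 and 45.7 TPM in WT c-kit-, 39.7 and 88.3 TPM in WT c-kit+, with 71.2 and 103 TPM in the labelled libraries, and their part in the results was not tested. In bulk RNA, fewer cells of a type and less RNA per cell cannot be told apart.

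In the GENCODE M21 annotation of GRCm38, Cebpa (chr7:35119293-35121928, forward strand) and Cebpg (chr7:35046422-35056573, reverse strand) lie on the same chromosome with 62719 bases between them. Cebpb (chr2:167688915-167690418, forward strand) is a gene of 1 exon, and Cebpd (chr16:15887286-15891031, forward strand) has transcripts of 1 or 2 exons. Cebpe (chr14:54710360-54712174, reverse strand) has 2 exons, and Cebpz (chr17:78919006-78937066, reverse strand) has up to 16. Some of these genes share exonic bases with a gene on the other strand: 312 bases of Cebpb (20.7% of its exons) with Tmem189, 562 bases of Cebpd (15%) with Spidr, 171 bases of Cebpz (3.67%) with Cebpzos and 51 bases of Cebpa (1.93%) with Gm45091. Cebpg overlaps Gm44836 on its own strand by 73 bases, Gm45095 on the other strand by 4, and Gm45094 with no exonic base in common. Cebpe overlaps no annotated gene. The kit does not mark strand, so reads that lie within the shared bases cannot be assigned to either gene.

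RefSeq promoters on GRCm38.p6 were given for Cebpa, Cebpb and Cebpg only, and all that were given are shown. Of these, Cebpb and Cebpg were both lower past the thresholds between the WT populations described below. Cebpa, the neighbour of Cebpg, was lower by less than the fold threshold. Each run is the sequence upstream of the RefSeq start, 5′ to 3′ on the strand of the gene. The Cebpg run holds 243 of the 250 bases, because those nearest the start are annotated as an untranslated region of Cebpg. Capitals mark TTGCNNCA in Cebpa, TGACG in Cebpb and CCAAT in Cebpg, read on either strand.
Cebpa (chr7:35119043-35119292, forward strand): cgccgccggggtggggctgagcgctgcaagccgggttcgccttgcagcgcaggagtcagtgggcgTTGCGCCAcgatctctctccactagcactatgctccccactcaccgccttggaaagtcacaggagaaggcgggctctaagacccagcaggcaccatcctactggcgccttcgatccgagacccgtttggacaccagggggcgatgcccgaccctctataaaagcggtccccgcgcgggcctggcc
Cebpb (chr2:167688665-167688914, forward strand): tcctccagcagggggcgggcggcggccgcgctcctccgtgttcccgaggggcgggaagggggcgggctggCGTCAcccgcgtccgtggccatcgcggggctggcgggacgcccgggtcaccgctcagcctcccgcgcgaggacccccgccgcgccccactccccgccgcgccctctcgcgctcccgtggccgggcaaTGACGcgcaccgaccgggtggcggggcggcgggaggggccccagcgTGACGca
Cebpg (chr7:35056574-35056816, reverse strand): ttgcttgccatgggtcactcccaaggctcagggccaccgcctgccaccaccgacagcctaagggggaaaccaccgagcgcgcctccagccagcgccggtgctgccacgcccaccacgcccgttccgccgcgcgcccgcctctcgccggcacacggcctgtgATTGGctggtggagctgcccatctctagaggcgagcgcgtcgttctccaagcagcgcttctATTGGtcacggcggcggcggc
The GC content was 66.4% for Cebpa, 81.6% for Cebpb and 70.4% for Cebpg, and the median over 32851 promoters of 250 bases was 52.4%. Of 5 motifs searched on both strands, TTGCNNCAA, TGATGNAA, GAAANNGAA and GAGGAA had no match in these windows. TTGCNNCAA was searched for C/EBP but does not read the same on both strands, so no C/EBP palindrome was searched. TGATGNAA is the C/EBP-ATF composite, GAAANNGAA the core of the interferon-stimulated response element and GAGGAA the PU.1 core. In the order searched, these letters occur in 1.74%, 3.45%, 7.13% and 23.3% of all promoters. CCAAT occurs in 33.8%, and Cebpg holds it at −89 to −85 and at −28 to −24. These positions count from the RefSeq start, not from the end of the printed run. Both matches lie on the strand opposite to the gene. The shorter letters TTGCNNCA, part of TTGCNNCAA, and TGACG, the core of the cAMP response element, were added after the sequences had been read. TTGCNNCA stands at −185 to −178 of Cebpa and occurs in 9.59% of promoters, and TGACG stands at 3 places in Cebpb (−180 to −176, −53 to −49 and −7 to −3) and occurs in 17.8%. A match of letters is a description of the window and no evidence of binding.

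Cebpe had the widest range of the family. It read 25.5, 27.6 and 70.4 TPM in WT c-kit- replicates 1, 2 and 3, then 366, 269 and 334 TPM in WT c-kit+, with 132, 140 and 135 TPM in the libraries labelled IRF7-/- c-kit+. The 3 groups did not overlap, with the labelled libraries between the WT populations, and by mean level Cebpe was gene 3859 of the table in WT c-kit-, gene 372 in WT c-kit+ and gene 1040 in the labelled libraries. Cebpa, the early factor, read 79.7, 82.9 and 81.4 TPM in WT c-kit-, 47.4, 58.7 and 54.7 TPM in WT c-kit+, with 92.0, 74.1 and 92.4 TPM in the labelled libraries. Its lowest group was thus the one in which Cebpe was highest, and the labelled libraries overlapped WT c-kit-. Cebpd, the acute phase factor, read 76.4, 62.0 and 71.2 TPM in WT c-kit-, 85.2, 66.4 and 80.2 TPM in WT c-kit+, with 45.5, 46.4 and 49.8 TPM in the labelled libraries. The WT populations overlapped, and the labelled libraries were below both.

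Cebpb, the factor of emergency granulopoiesis and macrophages, read 38.1, 29.8 and 39.3 TPM in WT c-kit-, 14.5, 12.3 and 12.9 TPM in WT c-kit+, with 15.1, 13.7 and 14.7 TPM in the libraries labelled IRF7-/- c-kit+. Both c-kit+ groups were low and overlapped each other. Cebpg, the partner of ATF4, read 37.0, 37.0 and 38.7 TPM in WT c-kit-, 13.9, 15.5 and 14.1 TPM in WT c-kit+, with 20.6, 20.3 and 22.3 TPM in the labelled libraries. Its 3 groups did not overlap. Cebpz, the ribosome assembly factor, was the flattest of the 6, with 30.9, 35.1 and 32.0 TPM in WT c-kit-, 33.3, 37.5 and 31.1 TPM in WT c-kit+, then 27.8, 23.9 and 28.8 TPM in the labelled libraries. The labelled libraries were the lowest and did not overlap either WT population.

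**Figure D1:**
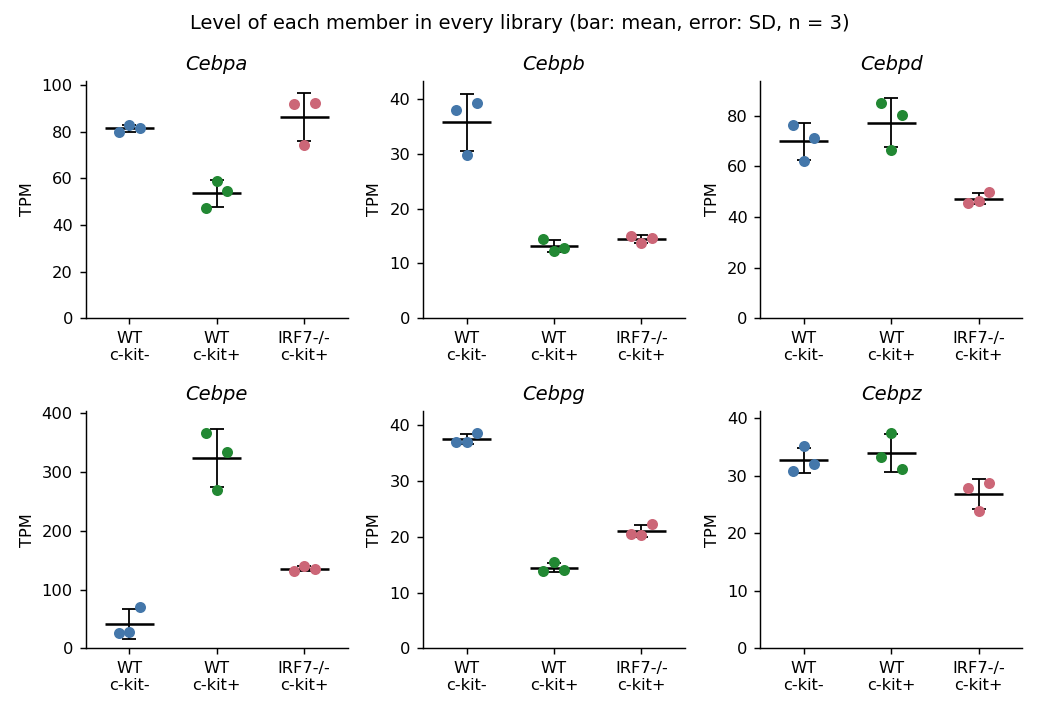
TPM (y axis, from 0, its own scale in each panel) of the 6 genes in each library of the 3 groups, with points for libraries, a bar for the mean and an error bar of 1 SD (n = 3). Cebpe reaches 366 TPM in WT c-kit+, Cebpb and Cebpg are highest in WT c-kit-, and replicate 3 of WT c-kit- lies above the other 2 for Cebpe.

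Since TPM is per length, the levels can be ordered within a group. In WT c-kit- the order of mean TPM was Cebpa, Cebpd, Cebpe, Cebpg, Cebpb and Cebpz, where Cebpa lay above Cebpd in every library and the libraries of Cebpe overlapped those of each later gene and of Cebpd. In WT c-kit+ the order was Cebpe, Cebpd, Cebpa, Cebpz, Cebpg and Cebpb, and of neighbours in it only Cebpg and Cebpb overlapped. In the libraries labelled IRF7-/- c-kit+ the order was Cebpe, Cebpa, Cebpd, Cebpz, Cebpg and Cebpb, with no overlap between neighbours. The genes with the highest mean therefore differed, Cebpa in WT c-kit- and Cebpe in both c-kit+ groups.

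Cebpe made up the largest share of the 5 bZIP transcripts in both c-kit+ groups. Cebpe was 15% ± 7.36 (SD, n = 3) of their summed TPM in WT c-kit-, 66.9% ± 2.90 (SD, n = 3) in WT c-kit+ and 44.5% ± 2.57 (SD, n = 3) in the libraries labelled IRF7-/- c-kit+. Cebpa was 30.9% ± 3.81, 11.3% ± 2.48 and 28.3% ± 2.70 (SD, n = 3) in the same order, and its share in the labelled libraries (25.2% to 30.2%) overlapped that in WT c-kit- (27.0% to 34.7%). Cebpd was 26.4%, 16.0% and 15.5%. Cebpb was 13.4%, 2.76% and 4.76%, and Cebpg was 14.2%, 3.05% and 6.91%. The summed TPM of the 5 genes was 266 ± 31.8, 482 ± 54.1 and 304 ± 9.79 (SD, n = 3). Without Cebpe the sum was 224 ± 11.1 in WT c-kit-, 159 ± 4.90 in WT c-kit+ and 169 ± 12.8 in the labelled libraries, so the WT c-kit+ group was the highest with Cebpe and the lowest mean without it.

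**Figure D2:**
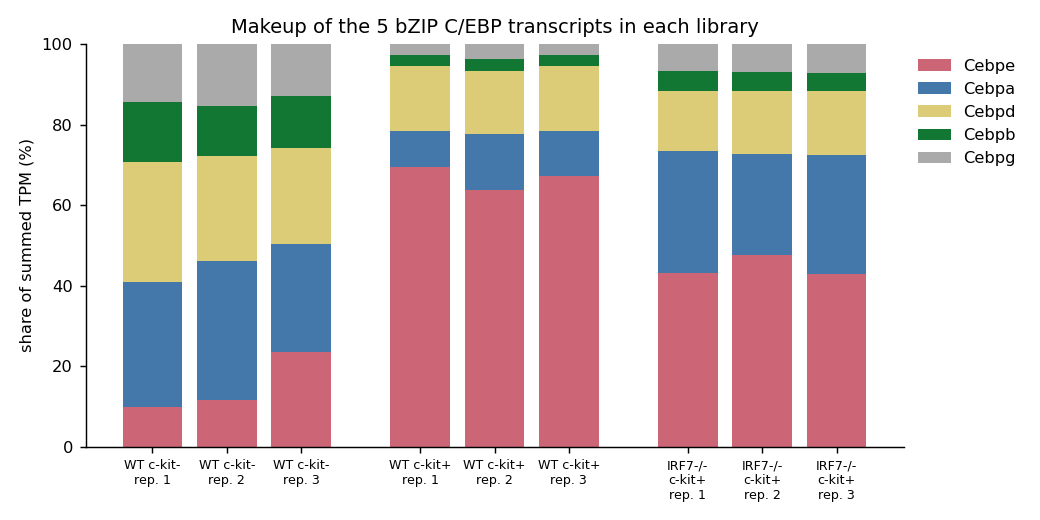
Share in percent (y axis) of each of the 5 bZIP genes in their summed TPM, 1 bar for each of the 9 libraries. Cebpe takes 63.7% to 69.5% in WT c-kit+, 42.9% to 47.5% in the libraries labelled IRF7-/- c-kit+ and 9.93% to 23.4% in WT c-kit-, where replicate 3 is the highest.

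A ratio of genes inside a library does not depend on how its total was scaled. Cebpe was 7.73, 4.58 and 6.10 times Cebpa in the WT c-kit+ libraries, 1.43, 1.89 and 1.46 times in the labelled libraries, and 0.320, 0.333 and 0.865 times in WT c-kit-. On the log2(TPM + 1) scale the mean ratio was 2.56 ± 0.37, 0.65 ± 0.22 and −1.12 ± 0.79 (SD, n = 3). The 3 groups did not overlap in this ratio. The ratio of Cebpd to Cebpa was 0.52 ± 0.33 in WT c-kit+, −0.85 ± 0.17 in the labelled libraries and −0.22 ± 0.18 in WT c-kit- (SD, n = 3). Of 15 such comparisons (5 ratios, 3 pairs of groups), 13 did not overlap, each with p = 0.1 in an exact two-sided permutation test (adjusted over the 15, 0.115), and 0.1 is the smallest p that 3 libraries against 3 allow. The 2 that overlapped were Cebpg to Cebpa between the c-kit+ groups (difference of −0.16, exact permutation p = 0.3) and Cebpb to Cebpg between the WT populations (difference of −0.05, exact permutation p = 0.9). In the other comparisons the ratio of Cebpb to Cebpg did not overlap, with differences of −0.38 between the c-kit+ groups and −0.43 between the labelled libraries and WT c-kit-.

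The comparison of the c-kit+ groups asks how the labelled knockout leukemia differs in the c-kit+ cells. Cebpe was lower in the libraries labelled IRF7-/- c-kit+, with 135 ± 4.17 TPM against 323 ± 49.6 TPM in WT c-kit+ (SD, n = 3), where it was 2.39 times as high. Its log2 fold change (log2FC) was −1.24 (SE, the standard error, 0.11, limma adjusted p = 0.000355), or −1.36 once the median gene is subtracted. It was the only 1 of the 6 genes past both thresholds, which were 1 for the size of the log2FC and 0.05 for the adjusted p of limma, on a log2(TPM + 1) scale that understates the change of low genes. Over the 13238 genes tested, 5.39% were lower and 6.30% higher by this rule. The other differences were under the fold threshold. Cebpa had 86.2 ± 10.4 TPM against 53.6 ± 5.75 TPM (SD, n = 3) and a log2FC of 0.67 (SE 0.11, limma adjusted p = 0.00374). Cebpd, with 47.2 ± 2.30 TPM against 77.3 ± 9.71 TPM (SD, n = 3), had −0.69 (SE 0.10, limma adjusted p = 0.00193). Cebpg had 0.51 (limma adjusted p = 0.00268), Cebpz −0.33 (limma adjusted p = 0.0341) and Cebpb 0.12 (limma adjusted p = 0.296). An adjusted p under 0.05 alone was met by 5 of the 6 genes, of which Cebpz lost it in 6 of 13 alternatives, beside 48.0% of all genes tested, and the libraries did not overlap for 5, beside 59.1%. The median log2FC of all genes was 0.12. With the 18 most abundant genes left out and the rest rescaled, that median was −0.02 and the value of Cebpb turned to −0.01.

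The comparison of the WT populations asks how sorting by c-kit divides the family within 1 genotype. Cebpe was higher and Cebpb and Cebpg were lower in WT c-kit+. Cebpe had 323 TPM against 41.2 ± 25.4 TPM (SD, n = 3) in WT c-kit-, a log2FC of 3.09 (SE 0.37, limma adjusted p = 0.000840), and 3.55 without replicate 3 of WT c-kit-. By the size of its change it was gene 141 of the 13261 tested. Cebpb had 13.2 ± 1.12 TPM against 35.7 ± 5.19 TPM (SD, n = 3), and fell by 1.36 on the log2 scale (SE 0.13, limma adjusted p = 0.000256). Tmem189, which shares exonic bases with Cebpb, read 43.7 to 48.9 TPM in WT c-kit- and 31.1 to 36.1 TPM in WT c-kit+, and its part in the value of Cebpb was not tested. Cebpg had 14.5 ± 0.868 TPM against 37.5 ± 0.967 TPM (SD, n = 3), and fell by 1.32 on the log2 scale (SE 0.07, limma adjusted p = 3.97e-05). The background was 4.83% of genes higher and 9.61% lower. Cebpa had a log2FC of −0.60 (limma adjusted p = 0.00179), under the fold threshold. Cebpd (0.14, limma adjusted p = 0.380) and Cebpz (0.05, limma adjusted p = 0.682) passed neither. An adjusted p under 0.05 was met by 4 of the 6 genes, beside 41.6% of all, and 4 did not overlap, beside 54.4%.

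The libraries labelled IRF7-/- c-kit+ were also set against WT c-kit-, which shares its libraries with the comparison above, as the c-kit+ comparison shares the labelled ones. Cebpe was higher, with a log2FC of 1.85 (SE 0.36, limma adjusted p = 0.00425), and 2.31 without replicate 3 of WT c-kit-. Cebpb was lower, its mean in WT c-kit- being 2.47 times as high, a log2FC of −1.24 (SE 0.12, limma adjusted p = 0.000184). Over 13510 genes, 8.40% were higher and 11.9% lower. Cebpg had −0.81 (SE 0.07, limma adjusted p = 0.000111), Cebpd −0.55 (limma adjusted p = 0.00184) and Cebpz −0.28 (limma adjusted p = 0.0406), all under the fold threshold. Cebpa had 0.08 (limma adjusted p = 0.513), and 0.18 without replicate 2 of the labelled libraries (limma adjusted p = 0.0382). An adjusted p under 0.05 was met by 5 of the 6 genes, of which Cebpz lost it in 8 of 13 alternatives, beside 59.4% of all, and 5 did not overlap, beside 67.1%.

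**Figure D3:**
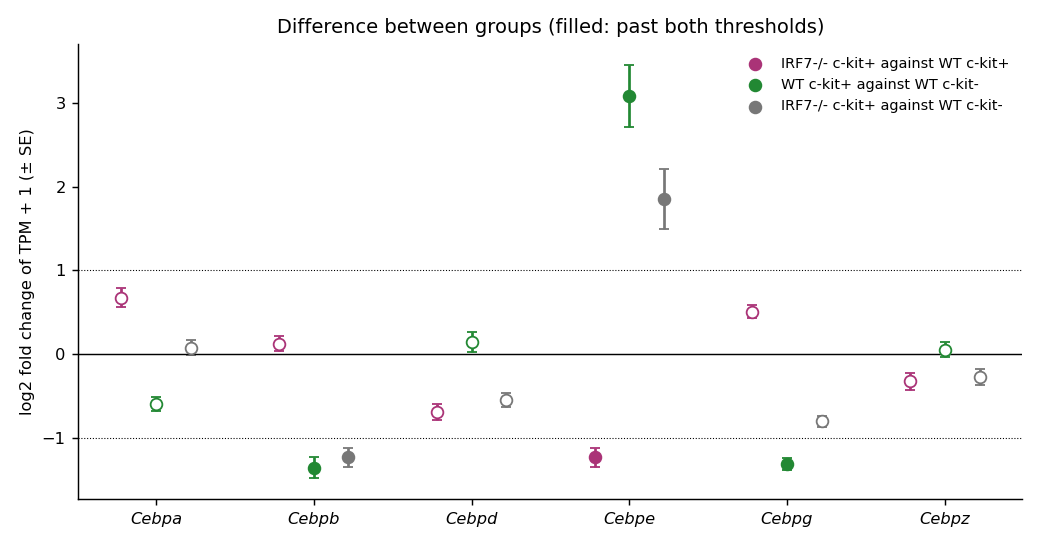
Log2 fold change of TPM + 1 (y axis, with the SE of the limma fit) of the 6 genes in the 3 comparisons, filled where both thresholds are passed and with dotted lines at −1 and 1. Cebpe is the only gene filled in all 3, at −1.24, 3.09 and 1.85, and Cebpb is filled in both comparisons with WT c-kit-.

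The profiles most like those of the members were found by the root mean square difference of centred log2(TPM + 1) over the 9 libraries, among 10283 genes of at least 5 TPM on average, for members whose group means span at least 1. Nearest to Cebpe were Sytl1 (difference of 0.201), Ptgs1 (0.210) and Syne1 (0.276). Sytl1 had 3.79, 29.2 and 12.3 TPM on average in WT c-kit-, WT c-kit+ and the labelled libraries. Nearest to Cebpb were Flvcr1 (0.0919), Ptprc (0.0927), which encodes CD45, and Prkcd (0.0949). Nearest to Cebpg were Fnip2 (0.0647), Cyp4f16 (0.0803) and Cst3 (0.0865), the last with 1352, 517 and 800 TPM on average. These are descriptions over 9 libraries of 3 groups, which share the same group differences.

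Partners and regulators of C/EBP proteins were read next. Trib1, whose product brings C/EBPα to the ubiquitin ligase COP1, had 10.7, 21.6 and 44.2 TPM in WT c-kit-, 48.4, 55.3 and 32.2 TPM in WT c-kit+, with 0.46, 0.10 and 1.03 TPM in the libraries labelled IRF7-/- c-kit+. The labelled libraries were below every WT library, with a log2FC of −4.93 (SE 0.28, limma adjusted p = 6.57e-05) against WT c-kit+. Cop1 itself had 60.9 ± 11.1 TPM against 70.6 ± 3.94 TPM (SD, n = 3, limma adjusted p = 0.188). Trib2 and Trib3 were under the filter of 1 TPM in every comparison. Spi1, which encodes PU.1, had 290 TPM in the labelled libraries and 307 TPM in WT c-kit+ (limma adjusted p = 0.362). Gfi1, which encodes a transcriptional repressor needed for neutrophils, had 10.5 TPM on average in WT c-kit- and 159 TPM in WT c-kit+, a log2FC of 3.84 (limma adjusted p = 4.53e-05), and Myb had 1.54 (limma adjusted p = 2.72e-05). Of the 9 tested of these 11 genes, 1 was lower and none higher between the c-kit+ groups, where 7 of the 9 had an adjusted p under 0.05, beside 48.0% of all genes tested, with a median log2FC of −0.51. After rescaling without the most abundant genes 2 were lower. Between the WT populations 2 were higher and 0 lower (median 0.11, which turned to −0.15 without replicate 1 of WT c-kit- and to −0.0039 without replicate 2 of WT c-kit+). Against WT c-kit- 3 were higher and 2 lower in the labelled libraries (median −0.52), and 1 was lower without their replicate 2.

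Ddit3 has 2 rows, of which 1 is listed at 0 in all 9 libraries. The other read 19.5, 35.8 and 47.0 TPM in WT c-kit-, 30.1, 41.8 and 26.6 TPM in WT c-kit+, with 18.1, 16.8 and 17.0 TPM in the libraries labelled IRF7-/- c-kit+, and its log2FC was −0.86 between the c-kit+ groups (limma adjusted p = 0.00505), under the fold threshold. Atf4, the partner of Cebpg, had 199 ± 13.1 TPM in the labelled libraries and 309 ± 62.4 TPM in WT c-kit+ (SD, n = 3), a log2FC of −0.62 (limma adjusted p = 0.0148), also under the fold threshold. Of 11 genes of the amino acid stress response, 10 were tested between the c-kit+ groups, 4 were higher in the labelled libraries and 1 was lower (median 0.54). Psat1, of serine synthesis, had 1.33 (limma adjusted p = 0.000153), Shmt2, of glycine synthesis in mitochondria, 1.10 (limma adjusted p = 0.000387), Aldh18a1, of proline synthesis, 1.06 (limma adjusted p = 0.000562), and Slc7a5, an amino acid transporter, 1.01 (limma adjusted p = 0.00237). The lower gene was Phgdh, the enzyme that opens serine synthesis, with −1.03 (limma adjusted p = 0.0155). The 4 higher genes became 2 without replicate 1 of WT c-kit+, without replicate 1 of the labelled libraries or with quantile normalization, and 1 after rescaling. No gene of the list was lower without replicate 2 of WT c-kit+ or without replicate 3 of the labelled libraries. Between the WT populations 3 were higher in WT c-kit+ and 1 was lower (median −0.06, but 0.11 with quantile normalization, 0.06 after rescaling and 0.04 without replicate 1 of WT c-kit+). The lower genes were 0 with quantile normalization and 2 without replicate 1 of WT c-kit-. Against WT c-kit- 3 were higher in the labelled libraries and 2 lower (median 0.75). Asns, asparagine synthetase, was higher in both of these, by 1.84 and 2.66 on the log2 scale, while Cebpg was lower in c-kit+ cells of both groups than in WT c-kit-, past the fold threshold only in WT c-kit+.

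Genes that C/EBPα and C/EBPε are known to act on were listed in separate groups. Of 9 early granulocytic genes, 1 was higher and 1 lower between the c-kit+ groups (median −0.39), beside 6.30% and 5.39% of all genes (median 0.12). Ctsg, cathepsin G of primary granules, was the higher, with 4017 TPM against 1311 TPM on average (log2FC 1.63, limma adjusted p = 0.000894), and Mgst1 the lower, with −1.44 (limma adjusted p = 0.000350). The lower genes were 2 without replicate 3 of WT c-kit+, without replicate 1 of the labelled libraries, with quantile normalization or after rescaling, and Ms4a3 stood just under the fold threshold at −0.97 (limma adjusted p = 0.000207). Csf3r, the G-CSF receptor, had 94.0 TPM against 133 TPM (limma adjusted p = 0.0161) and a log2FC of −0.50. Between the WT populations 5 were higher in WT c-kit+ and 2 lower (median 1.26). Ms4a3 (3.80), Mpo (3.48) and Elane (2.78) had the largest rises on the log2 scale, and the lower genes were the receptors Csf1r (−2.99) and Il6ra (−2.28). Csf1r is on this list though it encodes the M-CSF receptor, of monocytes and macrophages. Against WT c-kit- 5 were higher in the labelled libraries and 3 lower (median 1.78).

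In 9 of the 10 listed secondary granule genes the labelled libraries had the lowest mean, where Cebpe had its middle one. The other gene, Ltb4r1, is on this list though it encodes a leukotriene B4 receptor and no granule protein. It had the order of Cebpe, with 51.9, 179 and 89.4 TPM on average in WT c-kit-, WT c-kit+ and the labelled libraries. Mmp9, whose product is of tertiary granules, and Itgb2l, which encodes an integrin chain, are on the list too. Between the c-kit+ groups, where Cebpe was lower in the libraries labelled IRF7-/- c-kit+, 9 of the 10 were lower too and none higher, with a median log2FC of −4.14. Camp, the precursor of the cathelicidin peptide, read 10573, 6163 and 8922 TPM in WT c-kit+, with 125, 219 and 116 TPM in the labelled libraries, a log2FC of −5.82 (limma adjusted p = 4.29e-05). Ngp had −5.74 and Ltf, lactoferrin, −4.88. Against WT c-kit-, where Cebpe was higher in the labelled libraries, 8 of the 10 were lower and none was higher (median −2.56). Ltb4r1 had 0.85 (limma adjusted p = 0.0275), under the fold threshold. Mmp8, Mmp9 and Ltf had the largest falls, of −5.14, −4.10 and −3.70 on the log2 scale. Camp read 254, 402 and 1426 TPM in WT c-kit-, above the labelled libraries in all 3. Without replicate 3 of WT c-kit-, a setting added after the data were seen, 7 were lower and 1 higher (median −1.86). With no filter, or without replicate 1 or 3 of the labelled libraries, 6 were lower and none higher. After rescaling without the most abundant genes, 6 of the 8 still tested were lower. Between the WT populations 6 were higher in WT c-kit+ and 1 lower (median 1.63), and with each library left out in turn from 4 to 8 were higher, 8 of them without replicate 3 of WT c-kit-. The neutrophil marker Ly6g read 0.65 to 1.77 TPM in the labelled libraries, 19.6 to 45.4 TPM in WT c-kit+ and 11.4 to 65.0 TPM in WT c-kit-, and its part in these values was not tested.

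**Figure D4:**
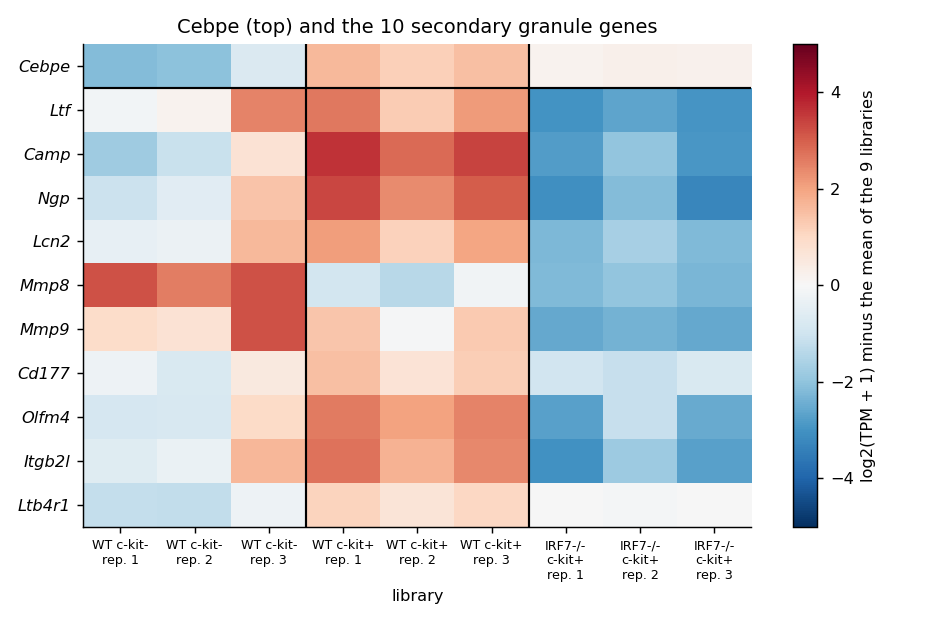
Log2(TPM + 1) of Cebpe (top row) and the 10 secondary granule genes in each library (columns), minus the mean of the gene over the 9 libraries (colour, red above and blue below). Cebpe lies between the WT populations in the libraries labelled IRF7-/- c-kit+, while 8 of the 10 genes are lower there than in WT c-kit- past both thresholds.

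Of 10 inflammatory genes, which C/EBPβ and C/EBPδ are known to act on, 5 were tested between the c-kit+ groups and 3 were lower in the labelled libraries (median −1.49). They were Cd14 (−2.76, limma adjusted p = 0.000882), Il1b (−2.57, limma adjusted p = 5.09e-05) and Tnf (−1.49, limma adjusted p = 0.000973). Without replicate 3 of WT c-kit+, 4 were tested, of which 2 were lower and 1 was higher (median −0.79). Il1b was not among them, since the filter still asked for 1 TPM in 3 libraries. Hp, haptoglobin, was abundant in all groups, with 1222 TPM against 1331 TPM on average (limma adjusted p = 0.220). Il6 and Nos2, 2 of the best known targets of C/EBPβ, were at or under 0.26 TPM in every library. Between the WT populations 1 of 6 was lower (Cd14, −1.32) and none higher (median −0.82), and 2 were lower in the fit of all 9 libraries, without replicate 1 of WT c-kit- or without replicate 3 of WT c-kit+. Against WT c-kit- 4 of 6 were lower in the labelled libraries and none higher (median −1.74). With replicate 1, 2 or 3 of WT c-kit- left out, 4 were tested and 2 were lower, with medians of −0.98, −0.97 and −0.85. Il1b and Ptgs2 then failed the filter of 1 TPM in 3 libraries, being under 1 TPM in every labelled library. These counts and medians are thus of fewer genes and do not show a weaker difference. The companions of Cebpz, 3 other NOC genes of ribosome assembly and 3 genes of the m6A writer, held no gene past both thresholds in any comparison. Between the c-kit+ groups Noc2l (0.58), Noc3l (0.63) and Noc4l (0.50) had an adjusted p under 0.05, opposite in sign to the −0.33 of Cebpz. Over all 57 listed genes, 5 of 49 tested were higher and 15 lower between the c-kit+ groups, where 6.30% and 5.39% of all genes were. In the comparison of the WT populations 16 of 50 were higher and 5 lower, beside 4.83% and 9.61% of all genes. Against WT c-kit- 11 of 50 were higher in the labelled libraries and 19 lower, beside 8.40% and 11.9%. Of the 15 lower between the c-kit+ groups, 9 were secondary granule genes. The lists were chosen with earlier results of these data known. These shares therefore do not test whether C/EBP targets change more than other genes.

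**Figure D5:**
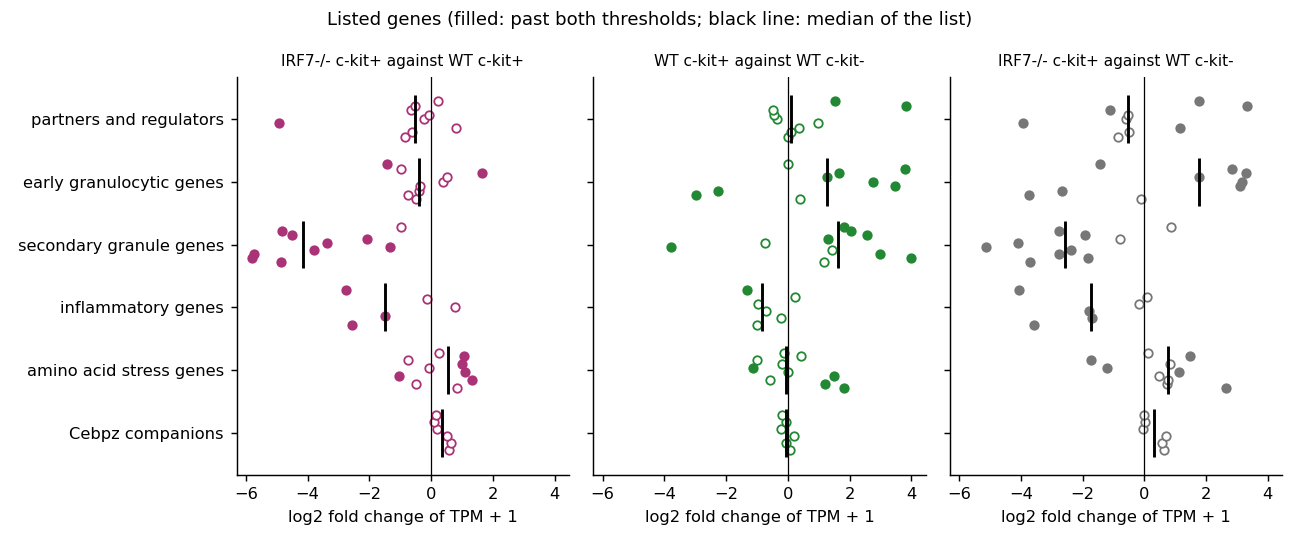
Log2 fold change of TPM + 1 (x axis) of the tested genes of the 6 lists (rows) in the 3 comparisons (panels), filled where both thresholds are passed, with a black line at the median of each list. The medians of the secondary granule genes lie at −4.14, 1.63 and −2.56, and no gene of the Cebpz companions is filled.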

How the data were processed

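RNA of 9 libraries, 3 in each of 3 groups named by the sample titles, was measured. The authors deposited TPM of 55536 genes in 1 table, from libraries made with the Illumina TruSeq RNA v2 kit per the labels, although the study's methods call the assay a microarray. The aligner, counting and build are not given in the sources used here. The unit, absent from the header, was judged to be TPM because each library sums to between 987468 and 992231 and the smallest nonzero value falls as transcripts get longer (log10 slope of −0.828 over 10470 genes of 1 transcript). TPM keeps no depth, so depth is unknown, no counting error is given, and 3 libraries a group limit the precision. All 55536 identifiers matched GENCODE M21.

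For each comparison only its 6 libraries entered limma 3.58.1 in R 4.3.3 (lmFit, eBayes with trend) on log2(TPM + 1), for genes of at least 1 TPM in at least 3 libraries, with Benjamini-Hochberg adjustment over all genes tested. Both thresholds of the study's results were used. Ratios were tested by exact two-sided permutation. The scripts were tested on simulated data. Motifs and levels were read with Python 3.11.15, pandas 2.3.3 and scipy 1.17.1, and plots made with matplotlib 3.10.9. The alternatives were a minimum of 5 TPM or none, a pseudocount of 0.1, quantile normalization, rescaling without the 18 genes that are among the 10 most abundant of any library, a fit of all 9 libraries, a replicate block, an unadjusted p, and each library left out. The members and lists were chosen with earlier results of these data known. Named genes are the 6 members, Irf7 and Kit, genes that overlap a member, the nearest profiles, and from each list up to 3 of the largest rises and falls past both thresholds and genes whose role is described.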

Additional observations from a re-analysis of the deposited data

How the results depend on the processing

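The log2 fold changes of the 6 genes in the 3 comparisons kept their direction and their call by both thresholds together in 250 alternatives and turned in 2, both for values that passed neither threshold. The fit of all 9 libraries, the replicate block and the unadjusted p leave the fold change as it was. They could not turn a direction, and an unadjusted p could not lose a call, so in these respects they say nothing about stability. Between the c-kit+ groups Cebpb was −0.013 (limma adjusted p = 0.928) without the most abundant genes, because the median of all genes moved with the rescaling from 0.12 to −0.02. Between the WT populations Cebpz ran from −0.018 to 0.11 with each library left out, negative without replicate 2 of WT c-kit+ (limma adjusted p = 0.895). The cause was not tested. Taken alone, the adjusted p of limma crossed 0.05 for 3 values. For Cebpz between the c-kit+ groups it was 0.0641 with no filter, 0.0817 with the replicate block, 0.0757 and 0.0813 without replicate 1 or 2 of WT c-kit+, and 0.0668 and 0.0839 without replicate 1 or 2 of the labelled libraries. For Cebpz against WT c-kit- it was above 0.05 in 8 of 13 alternatives, up to 0.121 without replicate 2 of WT c-kit- and also without each other library but replicate 3 of the labelled ones. For Cebpa against WT c-kit- it fell to 0.0382 without replicate 2 of the labelled libraries. The number of members past both thresholds was 1, 3 and 2 in the 3 comparisons under every alternative run, and the number of listed genes ran from 17 to 21, 18 to 24 and 27 to 31. The value of Irf7 between the c-kit+ groups (0.89) passed the fold threshold with a pseudocount of 0.1 (1.02), without replicate 1 of WT c-kit+ (1.04) and without replicate 2 of the labelled libraries (1.116), and its limma adjusted p ran from 0.0141 to 0.0943 over the alternatives. All 105 alternatives of the ratios moved by less than 1 SD. With 3 libraries a group, leaving 1 out cannot move a group mean by 1 SD. For those alternatives the outcome was fixed in advance and says nothing about stability.

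Whether equal replicate numbers pair the libraries was not settled. Same-numbered deviations from the group means correlated at 0.02 to 0.10 between the c-kit+ groups and at −0.07 to 0.24 between the WT populations. Between the labelled libraries and WT c-kit- the range was 0.05 to 0.08. Libraries of different numbers gave −0.10 to 0.02, −0.18 to 0.14 and −0.05 to −0.0066 in the same order. Only in the last did every same-numbered value lie above the others. With the replicate block, members past both thresholds numbered 1, 3 and 2 and listed genes 20, 21 and 30, as without it. Depth is unknown, and genes near 1 TPM rest on the filter and the pseudocount.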
